A study of Mus musculus with 6 samples.

Results

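E-cadherin (*Cdh1*) was examined together with the catenins that bind its cytoplasmic tail (*Ctnnb1*, *Jup*, *Ctnna1* and *Ctnnd1*) and with its leukocyte receptor genes *Itgae* and *Klrg1*. These 7 genes were taken by name from the 55421 genes counted in splenic monocytes. The set was selected on the difference of *Cdh1* between the genotypes in these libraries, so the differences of the 7 members are given as a description, without a test. Bulk RNA sequencing had been carried out on monocytes of C57BL/6 mice, 3 of them IL-4Rα+/+ and 3 IL-4Rα-/-, with 1 library per mouse. The IL-4Rα-/- mice were full knockouts, lacking the receptor subunit in all tissues and not in monocytes alone. The labels name no treatment for either group, and all mice were 8 to 16 weeks old. The monocytes were left untouched by a negative magnetic selection, so any spleen cell that the antibodies did not remove could also contribute RNA. The question put to these libraries was which transcripts of splenic monocytes differ when the receptor subunit shared by IL-4 and IL-13 is missing.

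E-cadherin is a calcium-dependent adhesion protein of epithelia that binds a second E-cadherin on the neighbouring cell. Inside the cell its tail holds either β-catenin (*Ctnnb1*) or plakoglobin (*Jup*), which link it through αE-catenin (*Ctnna1*) to actin, while p120-catenin (*Ctnnd1*) binds closer to the membrane and keeps the cadherin at the surface. β-catenin is also the nuclear effector of Wnt signalling. Among leukocytes, E-cadherin is made by Langerhans cells, by macrophages exposed to IL-4 and by early basophil, mast cell and erythroid precursors. Integrin αE (*Itgae*, CD103), paired with integrin β7, binds E-cadherin from the side of intraepithelial T cells and of cross-presenting dendritic cells. KLRG1 is an inhibitory lectin-like receptor of NK cells and antigen-experienced T cells that recognises E-, N- and R-cadherin.

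RefSeq promoters were found for 3 of the 7 members, all of them catenins, and only these could be shown. Each sequence is the 250 bases before a start site on GRCm38.p6, written 5′ to 3′ on the strand of the gene, with capitals for the CCAAT box (CCAAT) and the GC box (GGGCGG) on either strand.
Ctnnb1: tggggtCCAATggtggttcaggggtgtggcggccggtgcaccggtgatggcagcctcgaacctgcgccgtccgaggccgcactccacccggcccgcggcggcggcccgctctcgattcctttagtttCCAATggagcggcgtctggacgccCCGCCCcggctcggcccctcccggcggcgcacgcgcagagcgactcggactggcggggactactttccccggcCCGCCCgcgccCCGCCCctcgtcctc
Jup: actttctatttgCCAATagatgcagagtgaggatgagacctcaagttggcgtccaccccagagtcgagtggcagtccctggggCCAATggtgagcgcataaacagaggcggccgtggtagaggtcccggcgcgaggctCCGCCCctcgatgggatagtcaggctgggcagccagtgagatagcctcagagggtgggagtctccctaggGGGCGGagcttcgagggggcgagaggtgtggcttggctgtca
Ctnnd1, upstream start: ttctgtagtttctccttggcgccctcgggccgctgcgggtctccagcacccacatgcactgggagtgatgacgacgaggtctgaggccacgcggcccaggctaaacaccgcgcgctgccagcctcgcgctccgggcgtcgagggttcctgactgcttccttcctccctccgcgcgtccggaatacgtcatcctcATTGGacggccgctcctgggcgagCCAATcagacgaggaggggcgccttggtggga
Ctnnd1, downstream start: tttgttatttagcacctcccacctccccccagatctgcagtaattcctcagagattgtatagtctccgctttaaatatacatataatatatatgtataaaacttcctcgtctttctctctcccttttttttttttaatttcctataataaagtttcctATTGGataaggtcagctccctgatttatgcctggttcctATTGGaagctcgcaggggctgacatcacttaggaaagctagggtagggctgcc
The *Ctnnb1* window was chr9:120933150-120933399 on the plus strand, and that of *Jup* was chr11:100397791-100398040 on the minus strand. The *Ctnnd1* windows were chr2:84658978-84659227 and chr2:84650741-84650990, both on the minus strand. A second *Ctnnb1* start, whose window chr9:120933328-120933577 overlaps the first and is not printed, held 0 CCAAT boxes and 2 GC boxes. The 4 windows printed each held 2 CCAAT boxes, where 34.5% of the 27025 genes with a promoter of this length held at least 1. GC boxes, present in 32.9% of all these promoters, occurred 3 times before the first *Ctnnb1* start and 2 times before *Jup*, and 0 times in either *Ctnnd1* window. G and C made up 74.8% of the first *Ctnnb1* window, 62.0% of the *Jup* window and 66.8% of the upstream *Ctnnd1* window, against 40.0% at the downstream *Ctnnd1* start. The STAT6 pattern, TTC and GAA with 4 bases between them (5.86% of all promoters, both strands), the STAT pattern with 3 bases between them (7.18%) and the TCF/LEF letters CTTTGA (14.1%) had 0 matches in these windows or in that of the second *Ctnnb1* start. The E-box CANNTG, which Snail and ZEB repressors read in the *Cdh1* promoter and which 66% of all promoters held, matched 1 time, in the upstream *Ctnnd1* window. The upstream *Ctnnd1* start lies outside the gene as Gencode draws it, and gene counts do not tell which start was used. The motifs were chosen after the sequences had been seen.

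Reads counted on genes numbered 26807281 to 29033297 per library. Levels are given as CPM, read counts scaled to a common library size by the TMM method, and 1 count was worth 0.0344 to 0.0373 CPM before that scaling. The targeted gene *Il4ra* ranged from 128 to 177 CPM in IL-4Rα+/+ libraries and from 27.9 to 79.4 CPM in IL-4Rα-/- libraries, without overlap, and IL-4Rα-/- replicate 2 kept the most. The summed CPM of 12 monocyte markers, led by *Csf1r* and *Ace*, was 8712 to 11772 in IL-4Rα+/+ and 8211 to 9977 in IL-4Rα-/- libraries (two-sided exact permutation test, p = 0.30). The libraries also split by sex-linked genes across the genotypes, since *Xist*, of the inactive X chromosome, had 15739 counts in IL-4Rα+/+ replicate 1 and 13512 in IL-4Rα-/- replicate 3 and 1 to 103 counts in the other 4, where the Y-linked *Ddx3y* had 3239 to 4112. Across the 13849 genes with enough counts, edgeR's quasi-likelihood test called 0 genes (0.0%) at an adjusted p-value under 0.15, while 1120 (8.09%) had an unadjusted p-value under 0.05 (3.72% higher and 4.37% lower in IL-4Rα-/-) and DESeq2 called 80 of 14003 genes (0.571%, with 0.279% called higher). Among the members, 6 of 7 had enough counts for the test and *Klrg1* did not. edgeR called 0 of the 6, and DESeq2 called 1, *Cdh1*, the gene for which the set was chosen. The CPM of the genotypes did not overlap in 2 of the 6, *Cdh1* and *Ctnnd1*, both higher in IL-4Rα-/- libraries, where 7.63% of all genes tested were higher and 7.87% lower without overlap. The median log2 fold change of the 6 was 0.13, against 0.0084 over all genes tested. It includes *Cdh1*, on whose difference the set was selected, so it is no measure of the set as a whole. The other members tested were at -0.03 (*Ctnna1*), -0.0093 (*Ctnnb1*), 0.30 (*Ctnnd1*), 0.26 (*Jup*) and -0.08 (*Itgae*). The p-values measure the spread between these mice and libraries.

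**Figure D1:**
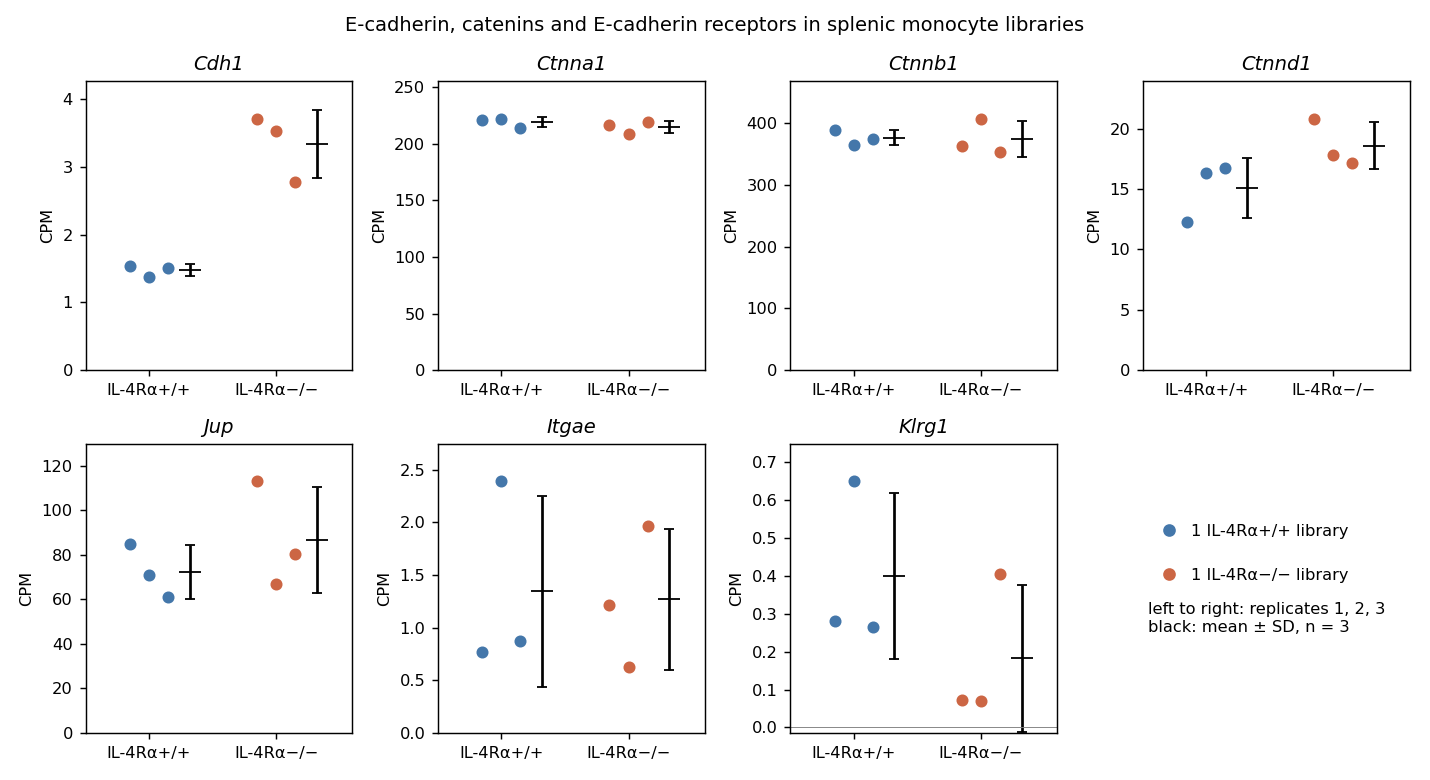
CPM of the 7 members (y axis, linear) in each library (points, replicates 1 to 3 from left to right) by genotype, with the mean ± SD of 3 libraries in black. The axes start at 0, except that of *Klrg1*, which starts just below 0 because the SD exceeds the mean in IL-4Rα-/- libraries. *Cdh1* sits between 1.37 and 1.55 CPM in IL-4Rα+/+ and between 2.77 and 3.71 CPM in IL-4Rα-/- libraries, whereas *Ctnna1* stays between 209 and 222 CPM throughout.

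*Cdh1* (ENSMUSG00000000303.12, GRCm38 chromosome 8 from 106603351 to 106670246, plus strand, no overlapping gene) was a rare transcript that was 2.26-fold higher in IL-4Rα-/- monocytes. It had 1.55, 1.37 and 1.51 CPM in IL-4Rα+/+ replicates 1, 2 and 3, and 3.71, 3.54 and 2.77 CPM in IL-4Rα-/- replicates 1, 2 and 3. All 3 IL-4Rα-/- libraries lay above all 3 IL-4Rα+/+ libraries, and IL-4Rα-/- replicate 3 was the lowest of its group. The means were 1.48 ± 0.0903 CPM (SD, n = 3) and 3.34 ± 0.50 CPM (SD, n = 3), a log2 fold change of 1.18 (standard error, SE, 0.22). These levels rested on 122 counts in the IL-4Rα+/+ and 287 counts in the IL-4Rα-/- libraries, with exact Poisson 95% intervals of 101 to 146 and 255 to 322 counts that cover counting error only. In IL-4Rα+/+ libraries the SD was below the 0.232 CPM that counting alone would give, whereas in IL-4Rα-/- libraries it was above the corresponding 0.342 CPM. When 1 library was left out in turn, the log2 fold change lay between 1.09 and 1.29. Within the *Xist*-expressing mice *Cdh1* was at 1.55 CPM in IL-4Rα+/+ and 2.77 CPM in IL-4Rα-/- (1 mouse each), and within the others it was at 1.37 to 1.51 CPM and 3.54 to 3.71 CPM. In a bulk library, more *Cdh1*-expressing cells and more *Cdh1* RNA per cell cannot be told apart.

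The 5 genes whose profile over the 6 libraries was closest to that of *Cdh1* were *Igha*, *Clec4n*, *Bmp8a*, *Mrap* and *Kcnk13*. Likeness was measured as the root mean square difference of log2 CPM after each gene was centred on its own mean, and the median over 13848 genes was 0.61. *Igha*, the heavy chain gene of immunoglobulin A, was closest at 0.094, with 248 ± 18.6 CPM in IL-4Rα+/+ and 567 ± 128 CPM in IL-4Rα-/- libraries (SD, n = 3 each). *Clec4n*, which encodes the fungal pattern receptor dectin-2, followed at 0.112, with 80.3 ± 8.35 and 156 ± 24.8 CPM. *Bmp8a*, a bone morphogenetic protein gene with 5 to 15 counts per library, came next at 0.132. *Mrap*, which encodes an accessory protein of the melanocortin 2 receptor, was at 0.143, and *Kcnk13*, a potassium channel gene, was at 0.165. All 5 had the same 3 libraries on the higher side as *Cdh1*, which their choice by likeness fixes. Of the other members, *Ctnnd1* was the closest to *Cdh1* at 0.46, with 5.81% of all genes closer, and *Itgae* was the farthest at 0.96, with 92.7% closer.

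**Figure D2:**
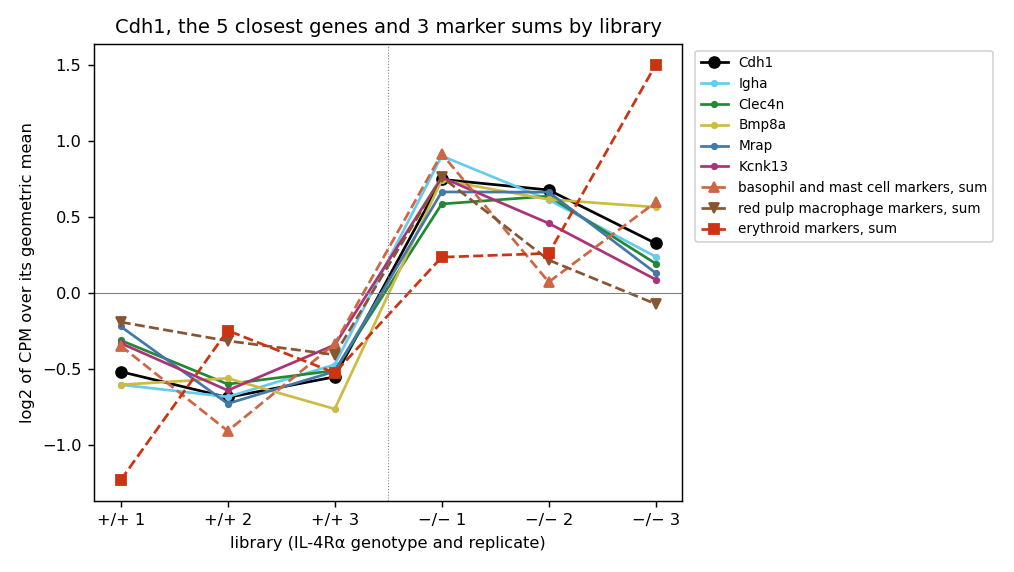
Log2 of CPM over its geometric mean (y axis) in the 6 libraries (x axis) for *Cdh1* (black), the 5 genes closest to it (thin lines) and 3 sums of marker genes (dashed). *Cdh1* and the 3 sums are all higher in IL-4Rα-/- than in IL-4Rα+/+ libraries, but the erythroid sum peaks in IL-4Rα-/- replicate 3 at 444 CPM, where *Cdh1* is at 2.77 CPM.

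Markers of several other cell types were, like *Cdh1*, higher in IL-4Rα-/- than in IL-4Rα+/+ libraries. The summed CPM of 14 basophil and mast cell markers, led by the proteases *Prss34* and *Mcpt8*, was 22.1 to 32.9 in IL-4Rα+/+ and 43.6 to 78.3 in IL-4Rα-/- libraries. Among them, *Tpsab1*, *Tpsb2* and *Mcpt4*, proteases of tissue mast cells, had 0 counts in all libraries. Of the 11 tested, 9 were higher and 2 were lower in IL-4Rα-/- libraries. The lower ones, named after their values were seen, were *Kit* (log2 fold change -0.21, SE 0.30) and *Cma1* (-0.26, SE 0.65). The 14 erythroid markers, led by the globin genes *Hbb-bs* and *Hba-a1*, summed to 67.0 to 132 CPM and 185 to 444 CPM. For 9 red pulp macrophage markers, led by *Vcam1* and *Slc40a1*, the sums were 2314 to 2686 CPM and 2917 to 5204 CPM. The 5 eosinophil markers, led by *Ccr3* and *Prg2*, summed to 65.9 to 71.3 CPM and 94.6 to 154 CPM. In each of these 4 lists the genotypes did not overlap, which gives p = 0.10 by a two-sided exact permutation test, the lowest value that 3 mice against 3 allow. By single genes, 7 of 11 basophil and mast cell markers tested, 12 of 14 erythroid, 6 of 9 red pulp macrophage and 2 of 4 eosinophil markers were higher without overlap, against 7.63% of all genes tested. edgeR called 0 of these genes, whereas DESeq2 called 3 basophil and mast cell markers (*Cpa3*, *Ms4a2* and *Hdc*) and 4 erythroid ones (*Hba-a1*, *Hbb-bt*, *Slc4a1* and *Trim10*), named after their values were seen, against 0.279% of all genes called higher by DESeq2. In IL-4Rα-/- replicates 1, 2 and 3, *Cdh1* was at 3.71, 3.54 and 2.77 CPM (104, 101 and 82 counts). The red pulp macrophage sums there were 5204, 3563 and 2917 CPM, and the eosinophil sums were 154, 105 and 94.6 CPM. The basophil and mast cell sums were 78.3, 43.6 and 62.8 CPM, lowest in replicate 2. The erythroid sums were 185, 188 and 444 CPM, highest in replicate 3, where *Cdh1* was lowest of its group. The part of these cells in the *Cdh1* difference was not tested.

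Epithelial and pancreatic markers were also counted. Of 12 epithelial and mesothelial markers, *Cldn7* and *Esrp1*, which accompany E-cadherin in epithelia, had 0 counts in all 6 libraries, and only *Krt7* and *Epcam* had enough counts for the test. *Epcam* was at 0.593 ± 0.303 CPM (SD, n = 3) in IL-4Rα+/+ and 0.640 ± 0.0563 CPM (SD, n = 3) in IL-4Rα-/- libraries. *Krt7* made up most of the sum of this list, which ran opposite to *Cdh1*, at 19.9 to 29.4 CPM in IL-4Rα+/+ and 10.1 to 17.9 CPM in IL-4Rα-/- libraries (p = 0.10 by the same exact permutation test). The 14 pancreatic acinar markers, led by *Cela1* and *Pnlip*, summed to 10.5 to 57.2 CPM and 19.6 to 398 CPM, with the highest value in IL-4Rα-/- replicate 2 (p = 0.30 by the same exact permutation test). All 13 acinar markers tested had a positive log2 fold change, with a median of 3.26. Of the 13, 1 was higher without overlap, against 7.63% of all genes tested. It was *Cela1*, at 10.3 to 18.8 CPM in IL-4Rα+/+ and 19.5 to 49.2 CPM in IL-4Rα-/- libraries. edgeR and DESeq2 each called 0 of these markers. Without IL-4Rα-/- replicate 2, *Cdh1* had a log2 fold change of 1.13 (SE 0.27). That setting does not remove acinar RNA, whose sum was 57.2 CPM in IL-4Rα+/+ replicate 1 and 49.0 CPM in IL-4Rα-/- replicate 1. The part of epithelial or acinar cells in the *Cdh1* difference was not tested.

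The α- and β-catenin genes were abundant and nearly constant. *Ctnna1* (ENSMUSG00000037815.7, chromosome 18, plus strand), the actin-linking catenin, had 221, 222 and 214 CPM in IL-4Rα+/+ replicates 1 to 3, and 216, 209 and 219 CPM in IL-4Rα-/- replicates 1 to 3. The libraries of both genotypes were interleaved, and the highest was 1.06 times the lowest. Its SD of log2 CPM over the 6 libraries was 0.032, and 0.303% of the 13849 genes tested had a smaller SD. The log2 fold change was -0.03 (SE 0.06). *Ctnnb1* (ENSMUSG00000006932.17, chromosome 9 from 120929216 to 120960507, plus strand) had 389, 365 and 375 CPM in IL-4Rα+/+ and 362, 407 and 353 CPM in IL-4Rα-/- replicates 1, 2 and 3. The IL-4Rα-/- libraries spanned a wider range that enclosed the IL-4Rα+/+ values, with IL-4Rα-/- replicate 2 the highest of all. The means were 376 ± 12.4 CPM (SD, n = 3) and 374 ± 29.1 CPM (SD, n = 3), a log2 fold change of -0.0093 (SE 0.08), and 8.55% of all genes tested had a smaller SD of log2 CPM. Both genes overlap antisense genes, *Lrrtm2* in *Ctnna1*, and *Ulk4* and *4930593C16Rik* in *Ctnnb1*, and whether the deposited counts used the strand is not given in the sources used here.

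Plakoglobin and p120-catenin varied more. *Jup* (ENSMUSG00000001552.14, chromosome 11 from 100368958 to 100397763, minus strand, no overlapping gene) had 84.8, 71.1 and 60.9 CPM in IL-4Rα+/+ replicates 1, 2 and 3, and 113, 66.9 and 80.2 CPM in IL-4Rα-/- replicates 1, 2 and 3. The genotypes overlapped, and IL-4Rα-/- replicate 1 stood above the other 5 libraries. The means were 72.3 ± 12 CPM (SD, n = 3) and 86.7 ± 23.7 CPM (SD, n = 3), and the log2 fold change was 0.26 (SE 0.21). It was 0.02 without IL-4Rα-/- replicate 1, 0.15 without IL-4Rα+/+ replicate 3, 0.39 without IL-4Rα+/+ replicate 1 and 0.42 without IL-4Rα-/- replicate 2. *Ctnnd1* (ENSMUSG00000034101.14, chromosome 2 from 84600071 to 84650765, minus strand, sharing its strand with *Gm28635*) had 12.2, 16.3 and 16.8 CPM in IL-4Rα+/+ and 20.8, 17.8 and 17.1 CPM in IL-4Rα-/- replicates 1, 2 and 3. The genotypes did not overlap, but IL-4Rα+/+ replicate 3 and IL-4Rα-/- replicate 3 nearly met. The means were 15.1 ± 2.5 CPM (SD, n = 3) and 18.6 ± 1.96 CPM (SD, n = 3), a log2 fold change of 0.30 (SE 0.15). It was 0.17 without IL-4Rα+/+ replicate 1, which held the lowest level, and 0.21 without IL-4Rα-/- replicate 1, which held the highest. Within the *Xist*-expressing mice *Ctnnd1* was at 12.2 and 17.1 CPM, and within the others at 16.3 to 16.8 CPM in IL-4Rα+/+ and 17.8 to 20.8 CPM in IL-4Rα-/-.

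**Figure D3:**
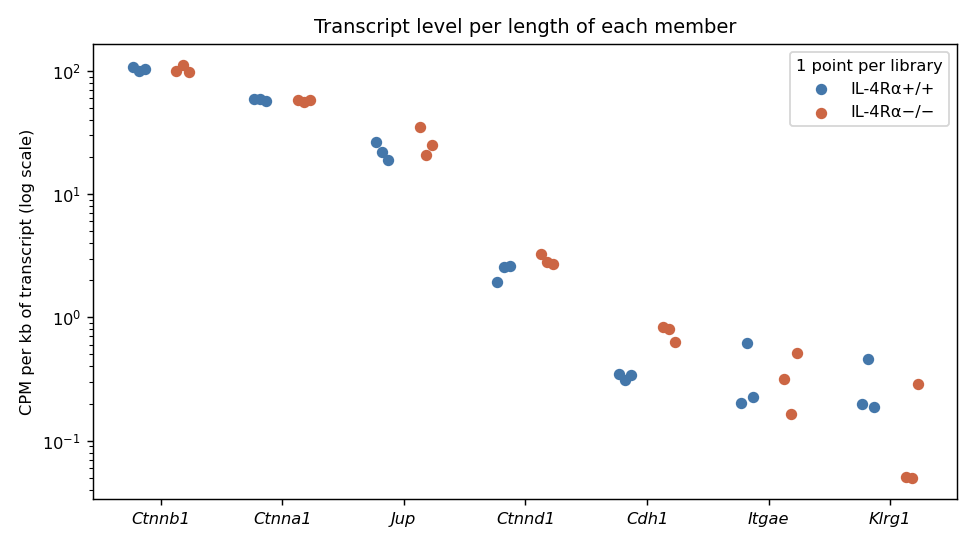
CPM per kb of the longest annotated transcript (y axis, log scale) for each member, 1 point per library, coloured by genotype. The mean falls from 104 CPM per kb for *Ctnnb1* to 0.206 CPM per kb for *Klrg1*. *Cdh1*, on whose difference the set was selected, is the member whose genotypes are set farthest apart relative to their spread.

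To compare levels between genes, CPM was divided by the length of the longest annotated transcript. Per kb, the order of mean levels over the 6 libraries was *Ctnnb1* at 104 CPM, *Ctnna1* at 58.1, *Jup* at 24.8, *Ctnnd1* at 2.65, *Cdh1* at 0.544, *Itgae* at 0.340 and *Klrg1* at 0.206. In the IL-4Rα+/+ libraries the last 3 did not differ beyond their spread, with 0.333 ± 0.0204 CPM per kb (SD, n = 3) for *Cdh1*, 0.349 ± 0.236 (SD, n = 3) for *Itgae* and 0.282 ± 0.155 (SD, n = 3) for *Klrg1*. In the IL-4Rα-/- libraries *Cdh1*, at 0.754 ± 0.113 CPM per kb (SD, n = 3), lay above *Itgae*, at 0.330 ± 0.174 (SD, n = 3), in every library. *Ctnnb1* exceeded *Cdh1* per kb by 304 to 324 times in IL-4Rα+/+ and by 119 to 155 times in IL-4Rα-/- libraries. The ratio of *Ctnna1* to *Ctnnb1* per kb was 0.550 to 0.590 and 0.498 to 0.602. Plakoglobin, which takes the same place on the cadherin tail as β-catenin, made up 15.5% to 19.8% of the per-kb sum of *Jup* and *Ctnnb1* in IL-4Rα+/+ and 15.7% to 26.1% in IL-4Rα-/- libraries, with overlap.

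The E-cadherin receptor genes were rare, and neither separated the genotypes. *Itgae* (ENSMUSG00000005947.11, chromosome 11 from 73090583 to 73147446, plus strand, with the antisense gene *Haspin* inside it) had 0.773, 2.39 and 0.868 CPM in IL-4Rα+/+ and 1.21, 0.630 and 1.96 CPM in IL-4Rα-/- replicates 1, 2 and 3. *Klrg1* (ENSMUSG00000030114.8, chromosome 6 from 122270596 to 122282882, minus strand, no overlapping gene) had 0.281, 0.651 and 0.264 CPM in IL-4Rα+/+ and 0.0714, 0.0701 and 0.406 CPM in IL-4Rα-/- replicates 1, 2 and 3. Both genes were highest in IL-4Rα+/+ replicate 2 and next highest in IL-4Rα-/- replicate 3, and the genotypes overlapped for both.

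*Itgae* had means of 1.34 ± 0.906 CPM (SD, n = 3) and 1.27 ± 0.667 CPM (SD, n = 3), against counting SDs of 0.221 and 0.210 CPM, and its log2 fold change of -0.08 (SE 0.59) lay between -0.54 and 0.63 when 1 library was left out. It was 0.63 without IL-4Rα+/+ replicate 2, -0.54 without IL-4Rα-/- replicate 3 and 0.16 without both. *Klrg1* rested on 33 counts in IL-4Rα+/+ libraries and 16 counts in IL-4Rα-/- libraries, of which 12 came from replicate 3, and the exact Poisson 95% intervals were 22.7 to 46.3 and 9.15 to 26.0 counts. In IL-4Rα-/- replicates 1 and 2 it had 2 counts each, under the 3 counts taken as not seen.

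Sums of lymphoid markers were high in the same pair of libraries. *Cd3e*, the T cell receptor chain named here after its values were seen, had 1.23, 6.51 and 1.36 CPM in IL-4Rα+/+ and 2.14, 1.12 and 6.36 CPM in IL-4Rα-/- replicates 1, 2 and 3. The 10 NK cell and innate lymphoid markers, led by *Rora* and *Gzma*, summed to 42.8 CPM in IL-4Rα+/+ replicate 2 and 39.0 CPM in IL-4Rα-/- replicate 3, and to 16.5 to 28.5 CPM elsewhere. The 10 T cell markers summed to 120 and 113 CPM in those libraries and to 43.8 to 89.1 CPM elsewhere. *Cd4* was the largest part of this sum, with *Cd8a* next. *Cd4* itself was highest in replicate 1 of each genotype, at 67.4 CPM in IL-4Rα+/+ and 67.9 CPM in IL-4Rα-/-. In IL-4Rα+/+ replicate 2 and IL-4Rα-/- replicate 3, *Cd4* was at 62.9 and 54.3 CPM and *Cd8a* at 17.8 and 14.0 CPM. The genotypes overlapped for both lists (two-sided exact permutation test, p = 0.80 for T cell and p = 1.0 for NK cell markers). Markers of type 1 conventional dendritic cells, the dendritic cells that carry integrin αE, summed over 8 genes led by *Itgax* and *Wdfy4* to 604 to 946 CPM in IL-4Rα+/+ and 526 to 745 CPM in IL-4Rα-/- libraries, with the highest value in IL-4Rα+/+ replicate 1 (two-sided exact permutation test, p = 0.30). *Xcr1* and *Clec9a*, markers of these cells named after their values were seen, were highest in IL-4Rα+/+ replicate 2, at 2.24 and 22.9 CPM, but in IL-4Rα-/- replicate 3 they were at 0.778 and 11.9 CPM, within the range of the other libraries. The part of these cells in the *Itgae* and *Klrg1* counts was not tested.

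**Figure D4:**
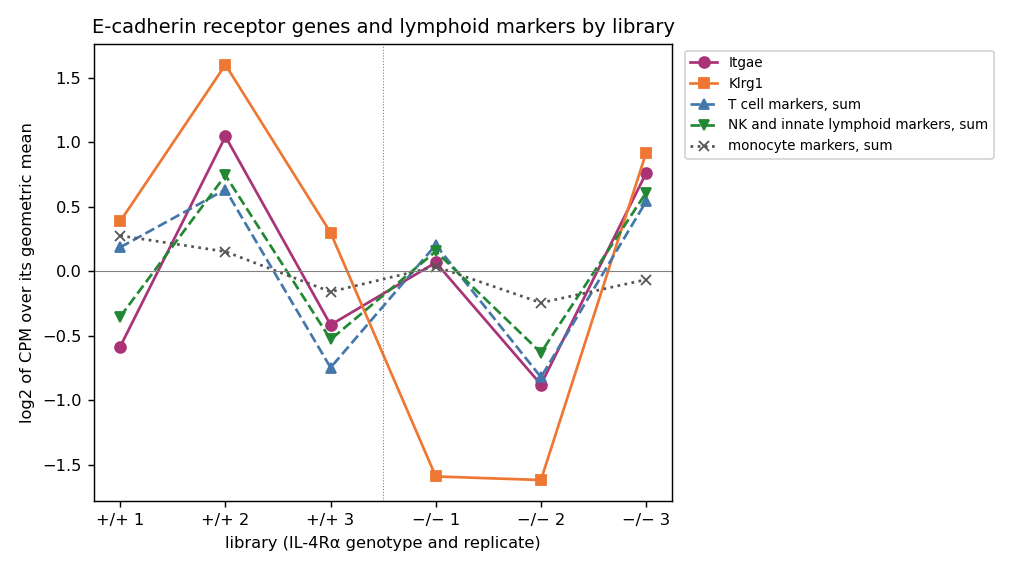
Log2 of CPM over its geometric mean (y axis) in the 6 libraries (x axis) for *Itgae* and *Klrg1* (solid), the sums of T cell and of NK and innate lymphoid markers (dashed) and the monocyte marker sum (dotted). All but the monocyte sum have their highest values in IL-4Rα+/+ replicate 2 and IL-4Rα-/- replicate 3, where *Itgae* is at 2.39 and 1.96 CPM.

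The partner of integrin αE was far more abundant than *Itgae* itself. *Itgb7*, which encodes integrin β7, a partner of integrin α4 as well, and is named here after its values were seen, had 540 ± 47.4 CPM (SD, n = 3) in IL-4Rα+/+ and 462 ± 62.8 CPM (SD, n = 3) in IL-4Rα-/- libraries, with a log2 fold change of -0.22 (SE 0.12). Per kb, it exceeded *Itgae* by 294 to 1182 times. All 9 genes listed as partners of *Itgae* and *Klrg1* were tested, 8 were lower and 1 was higher in IL-4Rα-/- monocytes, where 51.5% of all genes tested were higher. Their median log2 fold change was -0.13, against 0.0084 over all genes tested. The genotypes did not overlap in 2 of the 9, *Smad3* and *Inpp5d*, both lower, against 7.87% of all genes tested. *Ptpn6*, which encodes the SHP-1 phosphatase of inhibitory receptors, had 925 ± 74.7 and 926 ± 12.4 CPM (SD, n = 3 each), and *Tgfb1*, whose product induces *Itgae* in T cells, had 546 ± 62.1 and 540 ± 14.6 CPM. *Smad3*, a transducer of TGF-β, had the smallest unadjusted p-value of this list, with 72.6 ± 18.3 and 50.9 ± 1.39 CPM (SD, n = 3 each) and a log2 fold change of -0.51 (SE 0.17, edgeR adjusted p = 0.618). *Inpp5d*, the lipid phosphatase SHIP1 that KLRG1 can recruit, followed at -0.13 (SE 0.06, edgeR adjusted p = 0.632). edgeR and DESeq2 each called 0 of the 9.

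Beyond the members, 132 genes in 10 lists around E-cadherin were followed. Of these, 96 had enough counts for the test, with 45 higher and 51 lower in IL-4Rα-/- monocytes and a median log2 fold change of -0.02. edgeR and DESeq2 each called 0 of them, and 8 (8.33%) had an unadjusted p-value under 0.05 with edgeR, against 8.09% of all genes tested. The genotypes did not overlap in 16.7% of the 96, against 15.5% of all genes. These shares were near the background.

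Other cadherins were scarce, with 6 of 17 genes tested, 4 higher and 2 lower, and a median log2 fold change of 0.06. *Celsr3*, a large cadherin related to planar polarity genes, was the most abundant at 18.2 ± 5.90 CPM in IL-4Rα+/+ and 18.5 ± 5.50 CPM in IL-4Rα-/- libraries (SD, n = 3 each), and its relative *Celsr2* had 2.21 ± 0.371 and 1.98 ± 0.521 CPM. *Cdh23*, the cadherin of hair cell tip links, had the smallest unadjusted p-value of the list at a log2 fold change of 0.56 (SE 0.45, edgeR adjusted p = 0.722). The other cadherins that KLRG1 recognises, named after their values were seen, were *Cdh2* (N-cadherin) with 3 to 17 counts per library and *Cdh4* (R-cadherin) with 0 to 1 count, and neither had enough counts for the test. *Cdh13* and *Cdh26* had 0 counts in all libraries. The median of the list was -0.18 without IL-4Rα-/- replicate 3.

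Among other catenins and junction adaptors, 18 of 24 genes were tested, 10 higher and 8 lower, with a median of 0.12. *Iqgap1*, a scaffold that binds β-catenin and actin, was the most abundant at 1056 ± 88.2 CPM in IL-4Rα+/+ and 874 ± 63.6 CPM in IL-4Rα-/- libraries (SD, n = 3 each), without overlap and with a log2 fold change of -0.27 (SE 0.10). *Actn4*, an actin crosslinker, had 188 ± 8.33 and 183 ± 7.67 CPM. *Tjp1*, the tight junction scaffold ZO-1 that also binds α-catenin, had the smallest unadjusted p-value, with 3.40 ± 0.525 and 5.66 ± 1.38 CPM (SD, n = 3 each), no overlap and a log2 fold change of 0.74 (SE 0.24). *Tjp1* and *Iqgap1* both had an edgeR adjusted p of 0.618. The heart and testis α-catenin gene *Ctnna3* and the plakophilin gene *Pkp1* had 0 counts in all libraries.

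The genes of E-cadherin shedding and turnover were all tested, with 6 higher and 11 lower of 17 and a median log2 fold change of -0.10. The genotypes did not overlap in 7 of them, 5 lower and 2 higher, against 7.87% lower and 7.63% higher over all genes tested. The phosphatase genes *Ptpn1* (PTP1B, 594 ± 18.1 and 634 ± 214 CPM) and *Ptprj* (311 ± 67.0 and 224 ± 44.9 CPM, SD, n = 3 each) were the most abundant. *Rab5a*, a GTPase of early endosomes, had the smallest unadjusted p-value, with 72.5 ± 0.765 and 65.3 ± 0.987 CPM (SD, n = 3 each), no overlap and a log2 fold change of -0.15 (SE 0.06). *Ptprj* followed at -0.47 (SE 0.21), and the edgeR adjusted p was 0.618 for both.

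*Zeb2* was the most abundant of the *Cdh1* repressors. Of 16 listed, 11 were tested, 6 higher and 5 lower, with a median of 0.08. *Zeb2*, which is also a lineage factor of monocytes, had 458 ± 77.2 CPM in IL-4Rα+/+ and 371 ± 13.1 CPM in IL-4Rα-/- libraries (SD, n = 3 each), with overlap and a log2 fold change of -0.30 (SE 0.13, edgeR adjusted p = 0.618). The corepressor gene *Ctbp1* had 197 ± 4.01 and 209 ± 8.64 CPM, and the polycomb gene *Bmi1* had a log2 fold change of 0.18 (SE 0.11). The Snail genes, named after their values were seen, had too few counts for the test. *Snai1* had 5 to 7 counts in IL-4Rα+/+ and 0 to 3 in IL-4Rα-/- libraries, and *Snai2* had 0 to 1 count. *Snai3* had 0 to 7 counts in IL-4Rα+/+ and 0 to 8 in IL-4Rα-/- libraries. Of 9 activators, 3 were tested, and the epithelial factors *Foxa1*, *Foxa2* and *Grhl2* had 0 counts in all libraries. *Klf4* had 300 ± 46.4 and 257 ± 70.5 CPM, and *Runx1* had 107 ± 8.57 and 103 ± 11.2 CPM (SD, n = 3 each). *Gata2*, a factor of basophil and mast cell precursors and on that marker list too, had 1.82 ± 0.486 and 4.41 ± 2.37 CPM, a log2 fold change of 1.28 (SE 0.50, edgeR adjusted p = 0.618) with overlap. The median of these 3 genes was -0.06.

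For β-catenin regulation, all 11 genes of the destruction complex and its inhibitors were tested, with 5 higher, 6 lower and a median of -0.03. *Csnk1a1* (280 ± 31.6 and 284 ± 29.5 CPM) and *Gsk3a* (109 ± 3.40 and 107 ± 0.558 CPM, SD, n = 3 each), kinases that mark β-catenin for destruction, were the most abundant. *Apc*, the scaffold of the complex, had the smallest unadjusted p-value, with 97.2 ± 8.47 and 77.5 ± 11.4 CPM (SD, n = 3 each), no overlap and a log2 fold change of -0.33 (SE 0.12, edgeR adjusted p = 0.618). *Cby1*, an inhibitor of nuclear β-catenin, followed at 0.30 (SE 0.21). Of 9 nuclear partners of β-catenin and p120-catenin, 8 were tested, 3 higher and 5 lower, with a median of -0.06. *Pygo2*, a coactivator of β-catenin, had 97.1 ± 11.3 and 92.4 ± 2.77 CPM, and *Tcf7l2*, its DNA-binding partner, had 53.7 ± 22.4 and 44.7 ± 15.4 CPM (SD, n = 3 each). *Tcf7l1*, a related factor that mostly represses, had 1.03 ± 0.364 and 0.557 ± 0.119 CPM without overlap, a log2 fold change of -0.88 (SE 0.37, edgeR adjusted p = 0.618).

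Of 12 target genes of β-catenin, 7 were tested, with 5 higher, 2 lower and a median of 0.22. *Ccnd1*, which encodes cyclin D1, had 53.7 ± 17.9 and 49.3 ± 12.5 CPM, and *Tcf7* had 14.3 ± 8.46 and 12.3 ± 9.42 CPM (SD, n = 3 each). *Tcf7*, a T cell factor listed under nuclear partners as well, had 642 counts in IL-4Rα+/+ replicate 2 and 674 counts in IL-4Rα-/- replicate 3, the libraries high in *Itgae*, and 132 to 376 counts in the others. *Myc* had the smallest unadjusted p-value, with 8.87 ± 1.80 and 10.7 ± 0.707 CPM (SD, n = 3 each), no overlap and a log2 fold change of 0.27 (SE 0.18, edgeR adjusted p = 0.672). *Rnf43*, a negative feedback gene of Wnt signalling, followed at 0.36 (SE 0.36). *Sp5* had 0 counts in all libraries, and the median of the list was -0.13 without IL-4Rα-/- replicate 3.

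Macrophages exposed to IL-4 make E-cadherin along with other alternative activation genes, so 11 such genes were set beside *Cdh1*. Of these, 9 were tested, 6 higher and 3 lower in IL-4Rα-/- monocytes, with a median log2 fold change of 0.18. *Chil3*, a chitinase-like gene, had 780 ± 917 and 1070 ± 1184 CPM (SD, n = 3 each), a spread larger than its difference, and the transglutaminase gene *Tgm2* had 349 ± 195 and 291 ± 42.4 CPM. *Mrc1*, the mannose receptor gene, had the smallest unadjusted p-value, with 193 ± 3.88 and 284 ± 109 CPM (SD, n = 3 each) and a log2 fold change of 0.56 (SE 0.26, edgeR adjusted p = 0.618). The chemokine gene *Ccl22* followed at -0.71 (SE 0.39). The median of this list was -0.10 without IL-4Rα-/- replicate 1 and -0.08 without IL-4Rα-/- replicate 2.

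**Figure D5:**
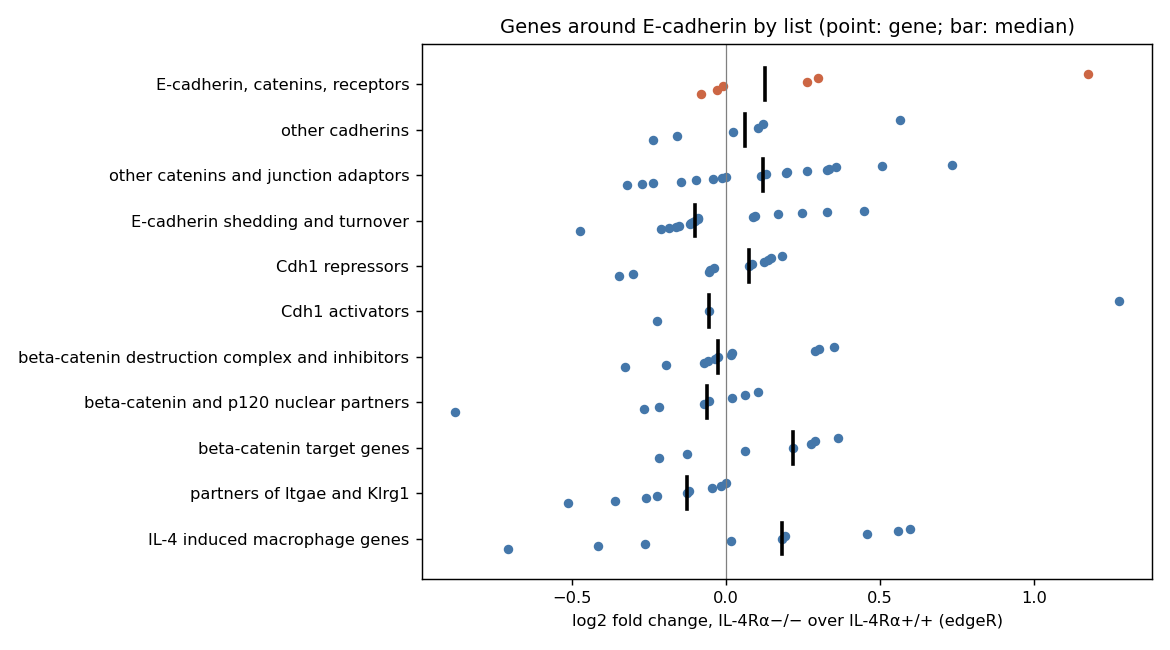
Log2 fold change between IL-4Rα-/- and IL-4Rα+/+ monocytes (x axis) for each gene tested in the 7 members (top, 6 genes) and the 10 lists around E-cadherin (rows); points are genes and bars are medians. The list medians lie between -0.13 and 0.22, and *Gata2* at 1.28 and *Cdh1* at 1.18 are the points farthest to the right.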

How the data were processed

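Poly(A) RNA of splenic monocytes, isolated by negative selection, was sequenced from 6 mice, 3 per genotype. The authors aligned single-end reads to GRCm38 with STAR 2.6.1a and Gencode M23, per the study's methods, and deposited the reads counted by STAR on each gene as raw counts, without normalization. STAR's summary lines (21.1% to 22.8% of reads) were left out of library sizes and tests. Symbols, positions and lengths came from Gencode M21, in which 55240 of 55421 identifiers were found, and promoters from RefSeq (GRCm38.p6).

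Genes were kept by filterByExpr (minimum count 10), normalized by TMM and tested by edgeR's quasi-likelihood method (R 4.3.3, edgeR 4.0.16) with p-values adjusted by Benjamini-Hochberg at a threshold of 0.15. DESeq2 1.42.0 was run as an alternative. Sums of markers were compared by an exact permutation test over 20 labelings. The steps were tested on simulated data. The mice were separate animals, grouped by genotype only.

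The members and lists were chosen with earlier results of these data known. Named were the members, *Il4ra*, in each list around E-cadherin the genes called, the 2 with the highest CPM and the 2 with the smallest unadjusted p-value, in each of the 13 marker lists the 2 with the highest CPM and those at 0 counts, and the 5 genes closest to *Cdh1*. Alternatives changed the normalization, filter, test, replicate block, length trend (loess, span 0.5), prior count (2 or 0.5) and libraries. Whether *Xist* or Y-linked genes were expressed was added as a term after the data were seen.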

Additional observations from a re-analysis of the deposited data

How the results depend on the processing

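The count of genes past the threshold changed with the test. DESeq2 called 80 genes (1208 at an unadjusted p under 0.05), against 0 with edgeR and 0 with DESeq2's size factors in edgeR, without the filter, with the length trend removed or with 1 library left out in turn. The log2 fold change of *Cdh1* lay between 1.09 and 1.29 over the libraries left out. The range was -0.04 to -0.0090 for *Ctnna1*, -0.07 to 0.03 for *Ctnnb1*, 0.17 to 0.41 for *Ctnnd1*, 0.02 to 0.42 for *Jup* and -0.54 to 0.63 for *Itgae*. These ranges include the setting without both IL-4Rα+/+ replicate 2 and IL-4Rα-/- replicate 3, which was chosen after seeing the data. Blocking by replicate number left 0 genes past the threshold, with log2 fold changes of 1.17 for *Cdh1*, 0.31 for *Ctnnd1*, 0.24 for *Jup*, 0.01 for *Itgae*, -0.03 for *Ctnna1* and -0.01 for *Ctnnb1*. With *Xist* or Y-linked expression as a term, also chosen after seeing the data, 0 genes passed and *Cdh1* was at 1.17. Same-numbered libraries had correlations of 0.18, -0.27 and -0.30 in their deviations from the group means. These values are of mixed sign, and with groups of 3 they cannot tell whether the numbers mark a pairing. As edgeR called 0 genes without the block too, the block had no call to remove. Of the alternatives with all libraries, 62 of 63 values counted as unchanged, and of the values without a library 101 of 109. For log2 fold changes and list medians, unchanged meant a move smaller than the spread between replicates. The count of genes past the threshold had to stay the same, and the genes closest to *Cdh1* were judged by how many were shared. *Klrg1* was under the filter, and DESeq2 gave -1.12 (standard error 0.96). The 5 genes closest to *Cdh1* were the same 5 with a prior count of 0.5. Depth limits *Cdh1*, *Itgae* and *Klrg1*, with 2 to 104 counts per library.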

Other observations

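The marker lists not described above are given here. Over all genes tested, 51.5% were higher in IL-4Rα-/- libraries. The 7 B and plasma cell markers, led by *Jchain* and *Cd79b*, summed to 123 to 192 CPM in IL-4Rα+/+ and 189 to 240 CPM in IL-4Rα-/- libraries (two-sided exact permutation test, p = 0.20). All 7 were tested and all 7 were higher in IL-4Rα-/- libraries, with a median log2 fold change of 0.65. Each overlapped between the genotypes, and edgeR and DESeq2 each called 0. The 10 neutrophil and promyelocyte markers, led by the calprotectin genes *S100a8* and *S100a9*, summed to 22.2 to 103 CPM and 73.0 to 409 CPM (p = 0.20 by the same exact permutation test). Of 9 tested, 8 were higher and 1 was lower, with a median log2 fold change of 1.90. Of the 9, 1 was higher without overlap, against 7.63% of all genes tested. DESeq2 called 1 marker of this list higher, against 0.279% of all genes, and edgeR called 0. The 5 megakaryocyte and platelet markers, led by *Itga2b* and *Pf4*, summed to 2.93 to 3.89 CPM and 3.43 to 7.03 CPM (p = 0.20 by the same exact permutation test). Of these, 3 were tested and all 3 were higher, with a median log2 fold change of 0.68, and edgeR and DESeq2 each called 0.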
